A study of Mus musculus with 6 samples.

Results

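The genes described here are 8 transcription factor genes that specify and maintain the macrophage lineage: Spi1, Maf, Cebpa, Cebpb, Klf4, Tfec, Mitf and Runx1. They were taken by symbol. Where several probe sets were annotated to 1 gene alone, the brightest on average across the 6 arrays stood for it. All 8 were measured, among 22180 genes in all. The macrophages came from bone marrow of 3 C57BL/KaLwRij mice and were grown with M-CSF for 7 days. Every culture then held 5TGM1-luc cells, a mouse myeloma line that carries luciferase, overnight before treatment. In 1 group the cultures received 0.5 nM of an antibody against mouse CSF1R for 3 days (3 arrays, labelled CS7), and in the other a control IgG antibody (3 arrays). The labels give no separate dose for IgG, and no age or sex of the mice. The cultures were washed 4 times against myeloma cells before RNA was taken for GeneChip Mouse Gene 2.0 ST arrays. Nothing in the labels ties an array to a mouse, so the p-values rest on a spread among arrays that may be technical only.

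CSF1R is the receptor tyrosine kinase through which M-CSF and IL-34 keep macrophages alive and differentiated. The identity of a macrophage is held by a small set of DNA-binding proteins. PU.1, the product of Spi1, opens macrophage enhancers together with C/EBP and RUNX proteins, and its binding to the Csf1r gene is part of how the receptor comes to be made. MAF restrains self-renewal of macrophages and drives the anti-inflammatory cytokine gene Il10, KLF4 acts in monocyte differentiation, and MITF and TFEC belong to a family that controls lysosome genes and, in osteoclasts, genes of bone resorption.

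All 8 genes were higher on the arrays of CSF1R antibody cultures than on those of IgG cultures. The differences ran from 0.30 for Cebpb to 1.95 for Tfec on the log2 scale, with a median of 0.91, where the median over all genes tested was -0.02. Each of the 8 passed the test used throughout, limma's moderated test across all 22180 genes, called where the Benjamini-Hochberg adjusted p was below 0.05, and 0 fell. By the same rule 12.5% of all genes were called higher with the antibody and 16% lower (28.5% either way). All 8 also passed at 0.01, as 9.57% of all genes did on the higher side. The 3 antibody values lay wholly above the 3 IgG values for all 8 factors, as they did for 16.6% of all genes (39.3% were apart in either direction). Tfec, Maf and Runx1 rose at least 2-fold, which 2.89% of all genes did past the test, while 0.0631% fell that far. All 8 also lay above 4.92 in both groups, a guide to background taken as the 95th percentile over 1390 genes for smell and pheromone receptors, since no measured background was available. Among genes above that guide in at least 1 group, 20.1% were called higher.

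**Figure D1:**
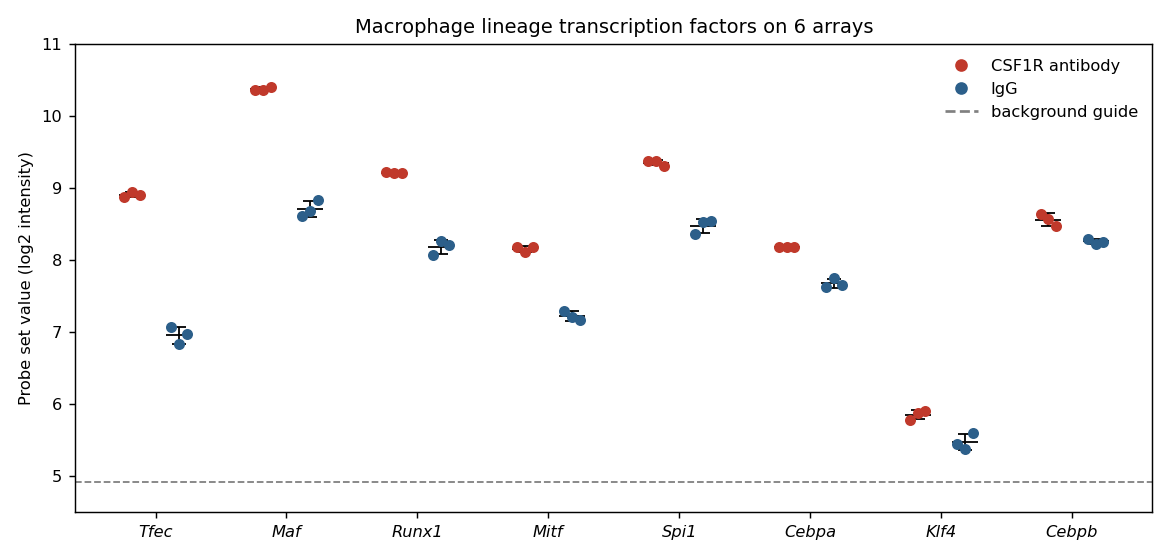
Each point is the log2 intensity of 1 factor on 1 array, with CSF1R antibody arrays in red left of IgG arrays in blue; black bars give the mean and SD of 3 arrays, and the dashed line at 4.92 is the background guide. The groups of no factor overlap, the gap being widest for Tfec and Maf, and Klf4 lies nearest to the guide.

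The genes that mark macrophages moved the same way on these arrays. Of 10 macrophage markers, 10 rose (median 1.17), and their summed intensity was 30139 to 31289 on antibody arrays, against 16823 to 17572 on IgG arrays. Of 10 plasma cell markers, 7 fell and 0 rose (median -0.32), with sums of 16264 to 17786 against 20546 to 21105. Of 10 stromal or smooth muscle markers, 6 fell and 1 rose, with sums of 1095 to 1154 against 2078 to 2137. The 1 that rose was the stromal gene Dcn, which like Lum lay below the guide in both groups. Of those that fell, Col3a1 lost the call under 8 of 16 alternatives and Col1a2 under 1. Pdgfrb, which was not called, passed under 8 of 16. None of 6 mast cell markers and none of 4 T or NK cell markers reached the guide or passed the test. None of 8 granulocyte markers passed either. Of these, 7 lay below the guide, and Mpo stood at 4.76 with the antibody and 4.93 with IgG. Of 7 osteoclast markers, Ctsk and Atp6v0d2 rose (Atp6v0d2 losing the call under 8 of 16 alternatives), while Calcr, Oscar and Ocstamp lay below the guide. Acp5 and Dcstamp lay above it and did not pass, with differences of -0.02 and -0.14 (limma adjusted p = 0.86 and 0.51). The median of the 7 was -0.02. In RNA of a whole culture, a larger share of macrophages and more transcript per macrophage cannot be told apart, and the part of the marker shift in the results below was not tested beyond the ratios given further on.

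Tfec, whose product is a leucine zipper protein made mainly in macrophages, had the largest rise of the 8. Its log2 values were 8.88, 8.94 and 8.90 on the antibody arrays, against 7.07, 6.83 and 6.97 on the IgG arrays. The lowest antibody value thus stood 1.81 above the highest IgG value, and the IgG arrays were the more spread. Tfec averaged 8.91 ± 0.03 with the antibody and 6.95 ± 0.12 with IgG (SD, n = 3 each), a rise of 1.95 (SE 0.07; 95% interval 1.79 to 2.12; 3.88-fold; limma adjusted p = 1.13e-05), which was rank 50 of all genes ordered by rise. Mitf, its relative, known for pigment cells, mast cells and osteoclasts, had log2 values of 8.18, 8.11 and 8.18 with the antibody, against 7.29, 7.20 and 7.17 with IgG. The groups were again apart, here by 0.81. Mitf rose by 0.93 (SE 0.05; 95% interval 0.80 to 1.06; 1.91-fold; limma adjusted p = 4.75e-05).

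The change of Tfec exceeded that of Mitf by 1.02 on the log2 scale (SE 0.07; exact permutation test over the 6 arrays, two-sided, p = 0.1). With 3 arrays against 3, 0.1 is the smallest p that this test can give, so no such difference between relatives could pass 0.05. It was 1 of 5 pairs of relatives compared in this way, and 0.1 was also the value adjusted over the 5. The other 2 genes of the family, which respond to nutrients at the lysosome, moved less. Tfe3 rose by 0.45 (SE 0.06; limma adjusted p = 0.0021), and Tfeb stood at 5.70 ± 0.09 with the antibody and 5.54 ± 0.12 with IgG (SD, n = 3 each; limma adjusted p = 0.21). The order of change in the family was therefore Tfec, Mitf, Tfe3 and Tfeb.

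The sequences before the starts of Tfec and Mitf are shown because the pair lie in 1 family and both rose, yet by different amounts. They are the 250 bases upstream of the annotated start, from RefSeq on GRCm38.p6, at chr6:16898442-16898691 on the minus strand for Tfec and chr6:97806808-97807057 on the plus strand for the most upstream of 3 starts of Mitf. Capitals mark letters searched as motifs, TGTGGT (RUNX), TGCTGA (MAF) and TTGCG (C/EBP), on either strand.
Tfec: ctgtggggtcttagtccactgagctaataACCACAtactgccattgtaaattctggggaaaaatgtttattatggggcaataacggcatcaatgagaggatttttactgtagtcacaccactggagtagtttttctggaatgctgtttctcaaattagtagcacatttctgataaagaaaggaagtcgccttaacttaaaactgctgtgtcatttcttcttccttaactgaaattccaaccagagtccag
Mitf: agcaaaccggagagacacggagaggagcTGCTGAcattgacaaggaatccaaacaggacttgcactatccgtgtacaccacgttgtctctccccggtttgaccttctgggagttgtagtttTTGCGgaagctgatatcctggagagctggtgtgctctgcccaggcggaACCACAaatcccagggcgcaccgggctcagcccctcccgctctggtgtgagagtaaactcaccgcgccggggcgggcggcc
The window of Tfec, counted with 50 further bases after the start, held 40.3% G and C and 3 CpG pairs, where the median of 32851 RefSeq promoter windows of 300 bases was 52.7% and 7 pairs. That of the first Mitf start held 62.7% and 22 pairs, the second 55.7% and 5, and the third 40.0% and 8. The probe set values do not say which Mitf start was in use. The RUNX letters stood in both sequences shown, as in 16.8% of all windows. A match is no evidence that a factor binds there.

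Maf, the gene of the large MAF protein c-MAF, had log2 values of 10.36, 10.36 and 10.40 on the antibody arrays, against 8.61, 8.68 and 8.83 on the IgG arrays. The first 2 antibody values were exactly equal, so the small spread there may understate the error. Maf averaged 10.38 ± 0.02 with the antibody and 8.71 ± 0.11 with IgG (SD, n = 3 each), a rise of 1.67 (SE 0.07; 95% interval 1.51 to 1.83; 3.18-fold; limma adjusted p = 1.37e-05), at rank 112 of all genes by rise. Of the 8 factors it alone had a further probe set annotated to it. On that dimmer probe set the values were 8.42, 8.42 and 8.53 with the antibody, against 6.57, 6.61 and 6.72 with IgG. The groups did not overlap there either, with a rise of 1.83 (SE 0.06; limma adjusted p = 1.15e-05 with every probe set tested).

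No other measured gene of the MAF family passed the test. The 5 were Mafa and Nrl, large MAF genes of pancreas and retina, and Maff, Mafg and Mafk, whose small proteins lack an activation domain and pair with other leucine zipper factors. Their differences ran from -0.13 for Mafg (adjusted p = 0.095) to 0.21 for Mafk (adjusted p = 0.086), both from limma. Mafk passed under cyclic loess (adjusted p = 0.017) and when only genes above the median signal were tested (adjusted p = 0.031), and Mafg when only those genes were tested (adjusted p = 0.030) or with quantile scaling (adjusted p = 0.024).

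Runx1 encodes the DNA-binding subunit of core binding factor, needed for the first blood stem cells and a partner of PU.1 in myeloid cells. Its log2 values were 9.22, 9.21 and 9.21 with the antibody, against 8.07, 8.26 and 8.21 with IgG. The antibody values were nearly level and stood 0.95 above the highest IgG value. Runx1 rose by 1.03 (SE 0.06; 95% interval 0.89 to 1.17; 2.04-fold; limma adjusted p = 4.89e-05). Runx3, its relative, stood at 5.95 ± 0.12 with the antibody and 5.73 ± 0.11 with IgG (SD, n = 3 each; limma adjusted p = 0.12, or 0.045 when only genes above the median signal were tested), and the change of Runx1 exceeded that of Runx3 by 0.81 (SE 0.09; exact permutation p = 0.1, the smallest possible).

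Cbfb, the gene of the common partner that stabilises RUNX proteins on DNA, went the other way. It stood at 9.23 ± 0.09 with the antibody and 9.46 ± 0.04 with IgG, a difference of -0.23 (SE 0.06; limma adjusted p = 0.030). That call was lost under cyclic loess and without any 1 of 5 arrays (all but antibody replicate 3), with adjusted p from 0.051 to 0.18. The upstream Runx1 start, at chr16:92826075-92826324 on the minus strand of GRCm38.p6, is shown for its single E-box CACGTG, the letters bound by MITF and TFE proteins, in capitals; 7.15% of all windows held it.
Runx1: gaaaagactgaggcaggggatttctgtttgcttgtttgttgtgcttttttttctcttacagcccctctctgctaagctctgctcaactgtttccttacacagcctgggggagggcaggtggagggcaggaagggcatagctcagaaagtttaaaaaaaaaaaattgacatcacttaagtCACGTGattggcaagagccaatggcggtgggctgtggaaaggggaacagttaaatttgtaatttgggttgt
The second Runx1 start held the PU.1 letters GAGGAA, read on the other strand, as did 28.3% of all windows. The window of Tfec held the PU.1 letters too, within the 50 bases after its start.

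Spi1, which encodes PU.1, had log2 values of 9.37, 9.37 and 9.31 with the antibody, against 8.36, 8.52 and 8.54 with IgG. The groups did not overlap, the gap being 0.78. Spi1 rose by 0.88 (SE 0.06; 95% interval 0.73 to 1.03; 1.84-fold; limma adjusted p = 0.00012). Of its close relatives Spic and Spib, only Spic lay above the guide. Spic, which in red pulp macrophages of the mouse drives iron recycling, rose by 1.07 (SE 0.13; limma adjusted p = 0.0013), while Spib, a B cell and plasmacytoid dendritic cell factor, was dimmer than the guide (3.82 with the antibody, 3.84 with IgG). A ratio against a gene at background says little, and the change of Spi1 exceeded that of Spib by 0.89 (SE 0.06; exact permutation p = 0.1, the smallest possible).

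Over the 16 genes of the ETS family listed, Spi1 included, 4 rose and 4 fell, with a median of 0.03. The 14 above the guide in at least 1 group held these 4 and 4. Of all 13110 genes above it, 2632 were called higher and 3414 lower. Besides Spi1 and Spic, Etv3, a repressor induced during macrophage differentiation, rose by 0.81 (SE 0.08) and Elk3, a serum response partner, by 0.76 (SE 0.06). Ets2, a nuclear end point of the ERK cascade downstream of CSF1R, fell by 0.60 (SE 0.05; 9.89 ± 0.07 with the antibody, 10.49 ± 0.04 with IgG; limma adjusted p = 0.00035). Elk4 fell by 0.33 (SE 0.06), or by 0.21 under cyclic loess. The other 2 that fell, Etv6 (-0.19) and Gabpa (-0.17), lost the call under 7 of 16 alternatives each. With cyclic loess 7 of the family rose and 2 fell, and 2 fell without any 1 of the antibody arrays or IgG replicate 1. Fli1, an abundant blood cell ETS gene, stood at 11.19 ± 0.04 with the antibody and 11.18 ± 0.04 with IgG (limma adjusted p = 0.94).

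**Figure D2:**
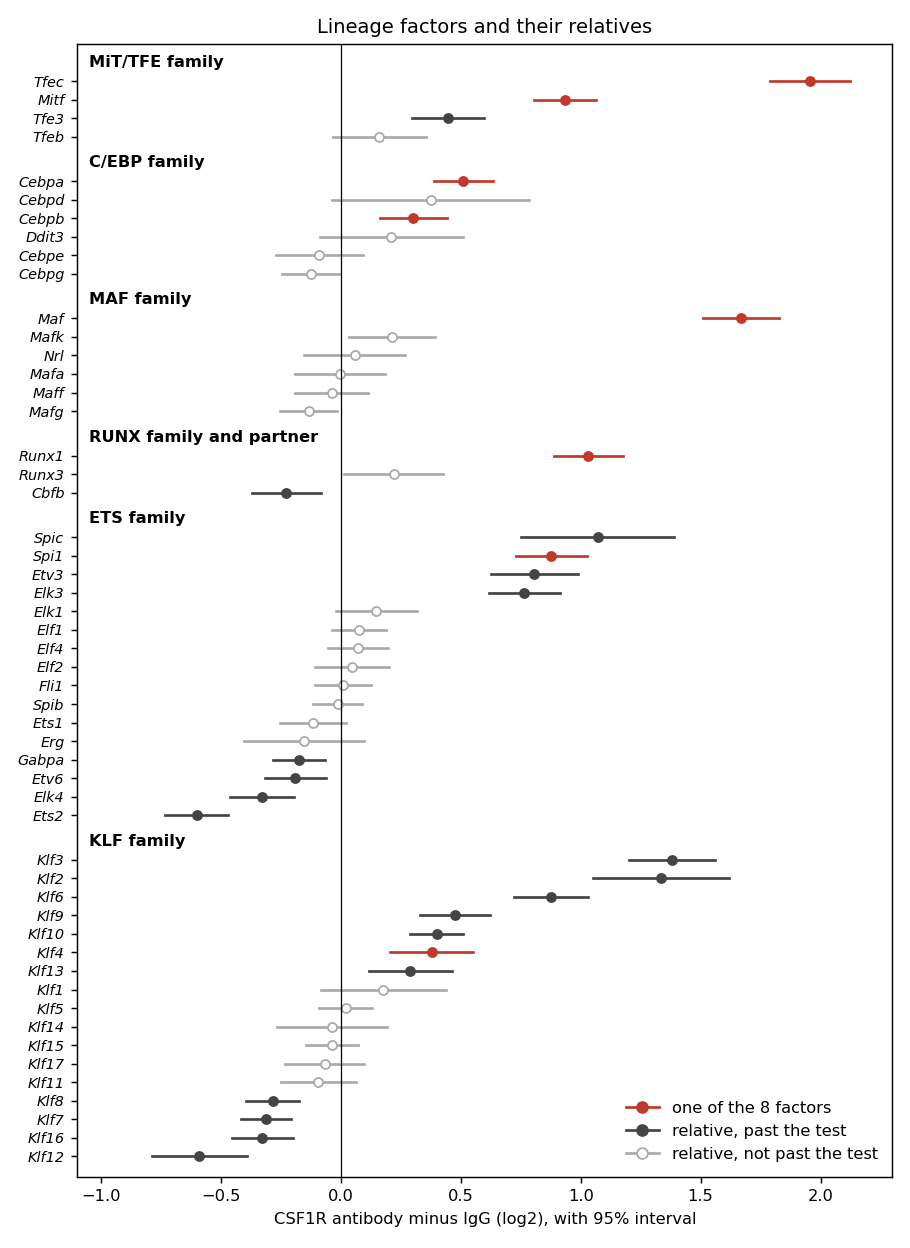
Points give the log2 difference of CSF1R antibody minus IgG arrays for each factor (red) and its relatives (dark where they passed the test, open grey where not), with limma's 95% interval. The families do not move as blocks: Maf stands apart from its relatives, and the ETS and KLF genes lie on both sides of 0.

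The C/EBP genes had the smallest rises together with Klf4. Cebpa, whose product commits progenitors to the myeloid lineage, had 8.18 on each of the 3 antibody arrays, against 7.62, 7.75 and 7.65 on the IgG arrays. The 3 antibody values were exactly equal, which was so for 540 of all genes (324 had equal values on the 3 IgG arrays), and the SD of 0 there is no measure of error. Cebpa rose by 0.51 (SE 0.05; 95% interval 0.39 to 0.63; 1.43-fold; limma adjusted p = 0.00052). Cebpb, which acts in inflammatory and alternative activation, had 8.64, 8.57 and 8.47 with the antibody, against 8.29, 8.23 and 8.26 with IgG. The groups were only 0.18 apart, and here the antibody arrays were the more spread. Cebpb rose by 0.30 (SE 0.06; 95% interval 0.16 to 0.44; 1.23-fold; limma adjusted p = 0.0086). The change of Cebpa exceeded that of Cebpb by 0.21 (SE 0.07; exact permutation p = 0.1, the smallest possible).

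Of the other 4 C/EBP genes listed, 0 passed the test. Cebpd, an acute phase factor, stood at 5.15 ± 0.23 with the antibody and 4.78 ± 0.29 with IgG (SD, n = 3 each; limma adjusted p = 0.17), Cebpe, a granulocyte factor, at 5.08 and 5.17, Cebpg at 8.59 and 8.72, and Ddit3, the stress factor CHOP, at 7.75 and 7.54. The groups of Cebpg did not overlap, and it passed when only genes above the median signal were tested (adjusted p = 0.045). The stretches upstream of the Cebpa and Cebpb starts, at chr7:35119043-35119292 and chr2:167688665-167688914 on the plus strand of GRCm38.p6, are shown as the G and C rich counterpart to that of Tfec. The capitals in Cebpa mark the C/EBP letters TTGCG, found in 17.4% of all windows. The KLF letters CACCC, on either strand, stood in both stretches and are left unmarked. They stood in 57.5% of all windows.
Cebpa: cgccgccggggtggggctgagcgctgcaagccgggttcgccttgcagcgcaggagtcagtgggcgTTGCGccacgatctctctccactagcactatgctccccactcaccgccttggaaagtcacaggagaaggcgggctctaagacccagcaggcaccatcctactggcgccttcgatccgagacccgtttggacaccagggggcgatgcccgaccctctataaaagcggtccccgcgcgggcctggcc
Cebpb: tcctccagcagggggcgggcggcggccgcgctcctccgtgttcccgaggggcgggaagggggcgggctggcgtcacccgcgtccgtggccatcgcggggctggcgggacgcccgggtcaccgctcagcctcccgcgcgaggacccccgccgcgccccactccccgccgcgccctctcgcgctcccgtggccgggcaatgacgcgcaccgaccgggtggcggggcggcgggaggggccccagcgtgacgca
The windows of Cebpa and Cebpb held 67.3% and 80.7% G and C, with 29 and 50 CpG pairs, above the upper quartile of 61.7% G and C over all windows. That of Klf4 held 74.3%, with 40 pairs and the E-box CACGTG. For Runx1, which rose more than these 3, the first start held 45% and 2 pairs and the second 69% and 35. Spi1 and Maf had no window, so 6 of the 8 factors could be read.

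Klf4, a zinc finger factor of monocyte differentiation and of alternative activation, was the dimmest of the 8. Its log2 values were 5.78, 5.87 and 5.90 with the antibody, against 5.44, 5.38 and 5.60 with IgG. The lowest antibody value exceeded the highest IgG value by 0.18. Klf4 rose by 0.38 (SE 0.07; 95% interval 0.21 to 0.55; 1.30-fold; limma adjusted p = 0.0080). Values this near the guide of 4.92 tend to understate a fold change.

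Larger changes were found in other KLF genes. Of 17 listed, Klf4 included, 7 rose and 4 fell, with a median of 0.02. The 14 above the guide in at least 1 group held these 7 and 4. Among all 13110 genes above it, 2632 were called higher and 3414 lower. Klf3, a repressor, rose by 1.38 (SE 0.08; limma adjusted p = 3.71e-05), Klf2, which keeps macrophages and endothelium quiescent, by 1.33 (SE 0.12) and Klf6, an injury response factor, by 0.88 (SE 0.06). The change of Klf4 fell short of that of Klf2 by 0.95 (SE 0.20; exact permutation p = 0.1, the smallest possible). Klf9, Klf10 and Klf13 rose by 0.29 to 0.48, Klf13 losing its call without antibody replicate 1 or 2 (limma adjusted p of 0.062 and 0.078, in order of size). Klf12 fell by 0.59 (SE 0.08), and Klf16, Klf7 and Klf8 by 0.29 to 0.33 (Klf8 by 0.18 under cyclic loess). The call of Klf7 was lost when all its probe sets were averaged (limma adjusted p = 0.17).

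Among 27 other regulators of macrophages and their precursors, 9 rose and 6 fell, with differences from -0.85 to 1.73. Of those that fell, Tcf4 lost the call under 9 of 16 alternatives, Gfi1 under 2 and Bhlhe41 under 1, and 4 fell under cyclic loess or without IgG replicate 2. Irf8, the partner of PU.1 that is required for monocytes and dendritic cells, rose by 1.73 (SE 0.05; 9.41 with the antibody, exactly equal on its 3 arrays, against 7.68 ± 0.04 with IgG; limma adjusted p = 8.10e-06). With all its probe sets averaged the rise was 1.13. Egr1, an immediate early gene of growth factor signals, rose by 1.02 (SE 0.08) and Bach1, a haem-sensitive repressor, by 0.96 (SE 0.04). Id3, whose product blocks helix-loop-helix factors and marks Kupffer cell differentiation, fell by 0.85 (SE 0.14; 6.65 ± 0.24 with the antibody, 7.50 ± 0.16 with IgG; limma adjusted p = 0.0038). Gata6 and Sall1, which mark peritoneal macrophages and microglia, and Gata2, a stem and mast cell factor, lay below the guide. Over all 71 measured relatives and other regulators together, without the 8, 19 rose and 15 fell, or 26.8% and 21.1%, against 12.5% and 16% of all genes. Above the guide in at least 1 group were 63 of them, with the same 19 and 15. Of all 13110 genes above it, 2632 were called higher and 3414 lower.

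The 8 factors were also set against the macrophage markers. For each array, the mean log2 value of the 10 markers was taken from that of the factor, a comparison added after the values were seen. The marker mean differed by 1.09, but the 10 markers themselves ranged from 0.33 for Cd68 to 1.74 for Cd14. That range holds 6 of the 8 factors, with Tfec above it and Cebpb below it. Against the mean, the difference was 0.87 (SE 0.07) for Tfec and 0.58 (SE 0.06) for Maf. It was -0.78 (SE 0.07) for Cebpb, -0.71 (SE 0.06) for Klf4, whose low signal tends to understate its change, and -0.57 (SE 0.05) for Cebpa. The groups did not overlap in these 5 ratios. They did not overlap either for Spi1 (-0.21, SE 0.07) and Mitf (-0.15, SE 0.05), whose ratios were closer to 0. The ratio of Runx1 differed by -0.05 (SE 0.06) and its groups overlapped (exact permutation p = 0.4). For the other 7 the exact permutation p was 0.1, the smallest possible, or 0.11 adjusted over the 8. No ratio could pass 0.05 in this test, so these are differences from a mean of unlike genes and not calls.

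**Figure D3:**
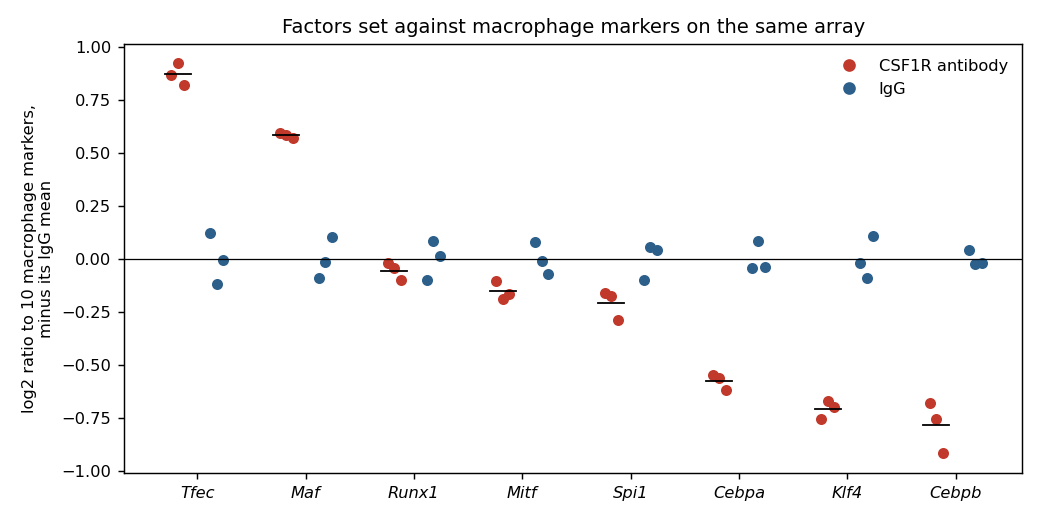
Each point is the log2 value of a factor minus the mean of 10 macrophage markers on the same array, shown relative to the mean of the IgG arrays (blue); CSF1R antibody arrays are red, with their mean as a bar. Tfec and Maf lie above 0 at 0.87 and 0.58, Runx1 at -0.05 overlaps the IgG arrays, and Cebpb is lowest at -0.78.

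Genes known as targets of these factors were read from 4 lists of textbook targets, which share genes with each other and with the macrophage markers, and are therefore no independent evidence on the factors. Over all genes, 12.5% were called higher and 16% lower. Of 19 PU.1 targets, 17 rose and 0 fell, with a median of 0.81. The largest rises were in Cd14 (1.74, SE 0.07), the lipopolysaccharide co-receptor gene, Fcgr3 (1.44, SE 0.05), an IgG receptor gene, Fes (1.33, SE 0.07), a myeloid tyrosine kinase gene, and Csf3r (1.29, SE 0.05), the G-CSF receptor gene. Csf1r, which PU.1 binds and whose protein the antibody targets, rose by 1.12 (SE 0.05). Btk and Csf2ra did not pass the test, at 8.93 and 11.09 with the antibody and 8.91 and 10.95 with IgG (limma adjusted p = 0.82 and 0.058), though Csf2ra passed under 4 of 16 alternatives, from adjusted p = 0.0050 to 0.032.

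Of 14 genes linked to large MAF proteins, 10 rose and 2 fell, with a median of 0.93. Gas6, a bridge for uptake of dying cells, rose by 1.81 (SE 0.05), the complement gene C1qa by 1.52 (SE 0.04) and the uptake receptor gene Mertk by 1.24 (SE 0.05). The 2 that fell were Vsig4, a complement receptor gene (3.63 ± 0.31 with the antibody, 4.93 ± 0.25 with IgG, the IgG mean being at the guide), and Il10, which fell by 0.58 (SE 0.06; 8.98 ± 0.08 with the antibody, 9.56 ± 0.06 with IgG; limma adjusted p = 0.00065). Il10, the best known target of c-MAF, thus went opposite to Maf itself. It was picked out after its value was seen. Il10 is also made by B lineage cells, and plasma cell markers had a median of -0.32 on these arrays; the part of those cells was not tested. Cd163 and Lyve1 lay below the guide.

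Of 21 MITF and TFE targets, 17 rose and 1 fell, by smaller amounts, with a median of 0.33. With 1 array left out, 14 to 16 rose. Among those that rose, Atp6v0d2 lost the call under 8 of 16 alternatives, Ctsb under 6 and Ostm1 under 2. Mcoln1, which was not called, passed under 5 of 16. Rragd, whose product links lysosomes to mTORC1, rose by 1.40 (SE 0.07), the lysosomal chloride carrier gene Clcn7 by 0.99 (SE 0.07), the hexosaminidase gene Hexa by 0.88 (SE 0.05) and Fnip2, a folliculin partner, by 0.73 (SE 0.05). Sqstm1, an autophagy receptor gene, differed by -0.23 (SE 0.06; limma adjusted p = 0.035), a call lost under 6 of 16 alternatives. The osteoclast gene Acp5 stood at 6.47 and 6.49 (adjusted p = 0.86), and Oscar lay below the guide. Of 19 C/EBP targets, 7 rose and 0 fell, with a median of 0.05. Il1b rose most (3.35, SE 0.10), and Saa3, an acute phase gene, rose by 1.05 (SE 0.10). The granulocyte genes of that list, Elane, Ltf, Ngp, Camp, S100a8 and S100a9, and the cytokine gene Il6 lay below the guide, and over the 12 above it the median was 0.54.

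**Figure D4:**
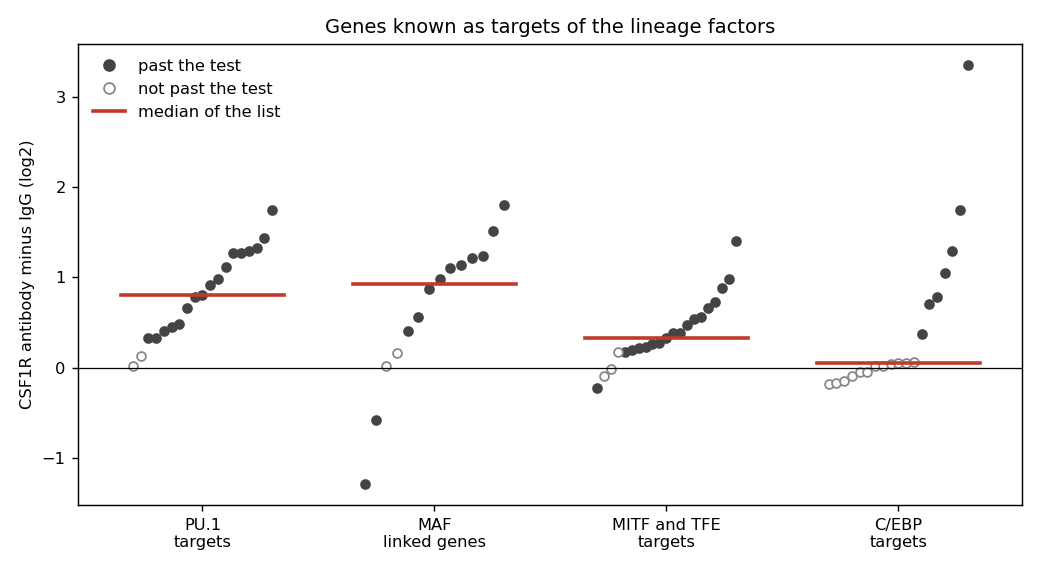
Points are log2 differences of CSF1R antibody minus IgG arrays for genes of 4 lists of known targets, sorted within each list; filled points passed the test and the red line is the list's median. The medians are 0.81 for PU.1 targets, 0.93 for MAF-linked genes, 0.33 for MITF and TFE targets and 0.05 for C/EBP targets, of which 12 of 19 did not pass.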

How the data were processed

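The deposited values are linear-scale intensities per probe set. RMA and limma are the tools that the submitters' processing notes list, without versions or steps. If quantile scaling was part of RMA here, a shift shared by most genes would not show. The genome build is not given in the sources used here. Median log2 intensity lay between 4.88 and 4.95 on the 6 arrays. Precision is limited by having 3 arrays a group.

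Values were taken as log2. Of 41345 probe sets, 23521 had 1 gene symbol in the platform annotation, giving 22180 genes; the others (1814 with several, 16010 with none) were not used. The 8 Entrez identifiers all gave the same symbol in RefSeq. The comparison used limma (version 3.58.1, under R 4.3.3), with Benjamini-Hochberg adjustment at 0.05 and no filter on low signal; single ratios were compared with exact permutation tests. On simulated data for this comparison (5 runs of 22180 genes, 200 changed), 58.4% of changes of 0.5 and 90.8% of changes of 1 (log2) were found, and 6.22% of calls were false. The real arrays had 28.5% of genes called, far more than were changed there, so those rates need not hold for them. Promoter motifs were read with Python 3.11.15, and figures drawn with matplotlib 3.10.9. The members, lists and tests were chosen with earlier results of these data known. Up to 4 genes with the largest change past the test were named per list, plus relatives counted in the text. Alternatives were variance models, scalings, filters, probe set rules, thresholds, a replicate block and leaving out each array. Of 6 planned comparisons between relatives, 1 is not reported here.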

Additional observations from a re-analysis of the deposited data

How the results depend on the processing

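All 8 factors kept their direction and call under the 17 alternatives run for each (18 for Maf, with its other probe set), with adjusted p at most 0.036 for Klf4 and 0.034 for Cebpb. The range was 1.89 to 2.05 for Tfec and 0.26 to 0.41 for Cebpb. Leaving out 1 array gave 1.89 to 2.01 for Tfec, 1.62 to 1.73 for Maf, 0.98 to 1.07 for Runx1, 0.91 to 0.97 for Mitf, 0.82 to 0.91 for Spi1, 0.48 to 0.55 for Cebpa, 0.33 to 0.44 for Klf4 and 0.26 to 0.35 for Cebpb. A 2-fold minimum, which by construction calls fewer genes, left 3 of the factors, 5 higher and 0 lower relatives, 16 higher and 1 lower targets, and 641 higher and 14 lower genes in all. A threshold of 0.01 left 9 lower relatives and 2232 lower genes. With cyclic loess, 3334 genes were higher and 2444 lower, in place of 2766 and 3548; the cause was not tested. Of 106 called genes of all lists, 91 kept the call under the alternatives run for them (up to 16 each). The ratios of relatives and of factors to markers kept their sign throughout. Same-numbered arrays did not deviate together (correlations 0.031, -0.053 and 0.0030). With 3 arrays a group, this cannot tell whether they shared a mouse. With the replicate number as a block, 8 factors rose, 2569 genes were higher and 2980 lower, and Tfec kept 1.95 (adjusted p = 0.00048). Signal over background limits what can be said of Klf4 and of the genes below the guide.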

Other observations

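For each factor, the genes with the most similar pattern over the 6 arrays were sought among 16987 named genes, by the root mean square difference between log2 values centred on each gene's mean. Nearest to Tfec were Rassf4 (0.043) and Kctd12 (0.049), which were at 10.32 and 10.25 with the antibody and 8.30 and 8.31 with IgG. Nearest to Maf were Cdk15 (0.031) and Snx20 (0.032), and nearest to Spi1 were Snx24 (0.017), a sorting nexin gene, and Colec12 (0.025), a scavenger receptor gene. Mitf was closest to Stx2 (0.025) and to Fosl2 (0.030), an AP-1 factor gene, and Runx1 to Arid5b (0.020) and Rab31 (0.022). Cebpa lay nearest to Capn2 (0.021) and Rab1b (0.024), Cebpb to Adam15 (0.026) and Lrp1 (0.029), and Klf4 to Pctp (0.035) and Gmip (0.037). These distances are dominated by the difference between the groups, and many genes with the same difference lie close by.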
